A study of Mus musculus with 151 samples.

Results

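The genes described are 10 members of the heat shock protein and chaperone system, Hspa1a, Hspa1b, Hspa8, Hspa5, Hsp90aa1, Hsp90ab1, Hspb1, Hsph1, Dnajb1 and Hsf1, chosen by name, with earlier results of these data known. They are 10 of the 35976 gene names that all 7 count tables of the series share. RNA-seq was performed on mice conceived naturally (referred to as Natural) or by in vitro fertilization (IVF). The tables cover primordial germ cells (PGCs) at E13.5, fetal ovaries (E18.5), adult ovaries of 2 ages (12 and 39 weeks), single oocytes of the same adult ages, and cumulus cells at 12 weeks. In each table the question was whether IVF offspring differed from Natural offspring, and across the ovary tables whether that difference changed with age.

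Natural mice came from CF-1 females mated with B6/SJL males. IVF mice carried the same cross, made from eggs of superovulated CF-1 females and sperm of B6/SJL males, with culture to the blastocyst stage in KSOM+AA medium under low oxygen and transfer to pseudopregnant CF-1 females. Adult offspring were delivered by cesarean section and raised by foster mothers, and the labels name no genetic alteration in either group. In the study's methods the fetal IVF ovaries are given in one passage as collected a day later than the Natural ones, so that stage and conception cannot be told apart there if this holds. PGC libraries numbered 4 Natural and 5 IVF. There were 4 Natural and 6 IVF fetal ovaries, 4 Natural and 5 IVF ovaries at 12 weeks, and 5 ovaries of each kind at 39 weeks. Of the last, 1 Natural ovary was labelled both 39 and 40 weeks. Oocytes and cumulus cells were taken from Natural and IVF females superovulated with the gonadotropins eCG and hCG. At 12 weeks 36 Natural and 40 IVF oocytes were sequenced singly, and their counts were summed into 5 Natural and 5 IVF sets that share the first fields of the library names. At 39 weeks there were 9 Natural and 10 IVF oocytes with no donor named, which leaves no replicate to test. Cumulus cells gave 5 Natural and 5 IVF libraries in 2 naming series, here GC and 12wks, and 1 Natural cumulus library (Natural 5) has a name that matches an oocyte set labelled IVF.

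Total counts ran from 4364495 to 8675189 per PGC library, from 6995713 to 14830788 per E18.5 ovary, from 2839022 to 43363799 per 12-week ovary, from 18079970 to 38751638 per 39-week ovary, from 19624072 to 58259515 per 12-week oocyte set, from 2820748 to 31126357 per 39-week oocyte, and from 2532824 to 6345249 per cumulus library. Levels are given as CPM, the counts scaled to the size of the library, with TMM factors computed within each table. The labels do not say for every sample that it came from a separate animal, so p-values measure the spread between these samples, which may be partly technical. In tissue samples, fewer cells of a type and less RNA per cell cannot be told apart. The labelled cell types were checked against marker lists. Summed fetal germ cell markers reached 2913 to 8131 CPM in PGCs, but also 1964 to 3534 CPM in 12-week oocyte sets. In PGCs the granulosa markers Amh, Foxl2 and Fshr were at 0 in every Natural and every IVF library. The full list of 10 granulosa markers summed to at most 12.0 CPM there, and 5 endothelial markers to 73.5 to 453 CPM. Gdf9, an oocyte growth factor, reached 9328 to 33317 CPM in 83 of 95 single oocytes but only 109 to 643 CPM in the other 12.

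Chaperones bind unfolded or partly folded proteins and keep them from aggregating until they fold, reach their compartment or are degraded. HSP70 proteins work in cycles of ATP binding that J-domain proteins start and nucleotide exchange factors end, and HSP90 proteins take over clients such as kinases and steroid hormone receptors. Under stress, heat shock factor 1 trimerizes, binds heat shock elements in promoters and raises the inducible members, while in the growing oocyte heat shock factor 1 is known as a maternal factor that drives Hsp90aa1.

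Promoters are shown for the members lower in IVF at E18.5 (Hspb1 and Hspa1b), for Hspa1a, the near-identical copy of Hspa1b, and for Hsph1, whose IVF difference changed between adult ages. Windows from 250 bases before to 50 after the annotated start were taken from RefSeq (GRCm38.p6, the assembly that mm10 is based on), in which 6 of the 10 members had an entry. Hspa8, Hsp90aa1, Hsp90ab1 and Hsf1 had none. Capitals mark a heat shock element pair, GAANNTTC or TTCNNGAA, and overlapping pairs were merged. A pair was found in 15.1% of 32851 RefSeq promoter windows of the same length, and a triple, in which a pair runs on into another GAA or TTC unit after a gap of 2 bases, in 0.603% of them. Each line gives the strand of the gene, 5′ to 3′, for Hspb1 at chr5:135887669-135887968 (plus), Hspa1a at chr17:34972107-34972406 (minus), Hspa1b at chr17:34959189-34959488 (minus) and Hsph1 at chr5:149636266-149636565 (minus).
Hspb1: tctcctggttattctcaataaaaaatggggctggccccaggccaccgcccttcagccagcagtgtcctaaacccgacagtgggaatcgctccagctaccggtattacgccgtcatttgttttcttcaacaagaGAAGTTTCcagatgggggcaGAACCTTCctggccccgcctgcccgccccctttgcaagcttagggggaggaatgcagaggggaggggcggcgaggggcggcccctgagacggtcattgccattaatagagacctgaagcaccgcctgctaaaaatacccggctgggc
Hspa1a: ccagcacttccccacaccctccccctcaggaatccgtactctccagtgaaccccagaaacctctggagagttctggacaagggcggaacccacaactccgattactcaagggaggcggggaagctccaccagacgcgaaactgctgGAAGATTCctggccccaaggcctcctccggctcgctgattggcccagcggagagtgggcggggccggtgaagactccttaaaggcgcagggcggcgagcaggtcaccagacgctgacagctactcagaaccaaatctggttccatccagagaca
Hspa1b: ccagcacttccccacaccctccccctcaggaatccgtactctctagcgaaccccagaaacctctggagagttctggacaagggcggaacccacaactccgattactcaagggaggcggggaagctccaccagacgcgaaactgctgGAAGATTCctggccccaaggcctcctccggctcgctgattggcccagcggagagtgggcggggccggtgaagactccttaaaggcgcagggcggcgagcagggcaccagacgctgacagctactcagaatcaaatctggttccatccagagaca
Hsph1: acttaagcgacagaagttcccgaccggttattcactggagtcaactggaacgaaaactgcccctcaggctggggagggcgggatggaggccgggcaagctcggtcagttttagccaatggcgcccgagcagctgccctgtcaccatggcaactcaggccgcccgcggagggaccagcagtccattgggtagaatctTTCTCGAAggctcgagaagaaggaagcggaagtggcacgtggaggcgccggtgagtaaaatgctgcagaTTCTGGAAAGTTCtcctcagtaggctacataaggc

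The Hspb1 window held 2 pairs, which began 117 and 97 bases before the start. Hspa1a and Hspa1b each held 1 pair, 104 bases before the start, and their windows differed at 4 of 300 bases. In the Hsph1 window there were 3 pairs, and 2 of them overlapped as the triple TTCTGGAAAGTTC, which began at base 16 after the start. The windows of Hspa5 and Dnajb1 held no pair of these letters, and that of Hspa5 held 4 CCAAT boxes (CCAAT or ATTGG, found in 37.4% of windows). A match of letters is a description of the sequence only.

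By mm10 position in the GENCODE annotation, Hspa1a (chr17:34969190-34972156) and Hspa1b (chr17:34956436-34959238) lie side by side on the minus strand, and near-identical copies can split or lose reads, so their separate values are uncertain. Hspa8 lies at chr9:40800984-40810087, Hspa5 at chr2:34771970-34777547, Hsp90aa1 at chr12:110690605-110702728, Hsp90ab1 at chr17:45567775-45573271, Hspb1 at chr5:135887919-135889563, Hsph1 at chr5:149614287-149636376, Dnajb1 at chr8:83608193-83612653 and Hsf1 at chr15:76477422-76501913.

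The members fell into different orders in germ cells, ovary and cumulus cells when levels were given as CPM per kilobase of exon. Adult ovaries at 12 weeks were led by Hsp90ab1, the constitutive cytosolic HSP90, followed by Hspa5, the HSP70 of the endoplasmic reticulum, and Hspa8, the constitutive cytosolic HSP70. Their median was 991 CPM per kb for Hsp90ab1, 386 for Hspa5, 248 for Hspa8 and 119 for Hsp90aa1. Lower in that order stood Hspb1, a small heat shock protein (64.8), Dnajb1, a J-domain partner of HSP70 (33.9), Hsph1, a nucleotide exchange factor for HSP70 (24.6), the inducible HSP70 genes Hspa1b (13.1) and Hspa1a (8.54), and the factor Hsf1 (7.79). At E18.5 Hsp90aa1 (median 159 CPM per kb) stood next to Hspa8 (151), and in IVF ovaries at 39 weeks Hspa8 (383) stood above Hspa5 (325). The tables were normalized separately and their libraries were made with different kits, so levels set across tables are a description with no test.

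Both HSP90 genes and Hspa8 were highest in PGCs. Per kb, the PGC medians were 2293 CPM for Hsp90ab1, 1891 for Hsp90aa1 and 1453 for Hspa8, against 258 for Hspa5. In 12-week oocyte sets the order turned to Hsp90aa1 (median 827 CPM per kb) over Hsp90ab1 (246), and Hspa8 stood at 6.33. The ratio of Hsp90aa1 to Hsp90ab1 per kb was 2.50 to 4.53 in the 10 oocyte sets, 0.748 to 0.972 in PGCs, 0.117 to 0.201 in E18.5 ovaries, 0.0996 to 0.191 in 12-week ovaries, 0.0661 to 0.159 in 39-week ovaries and 0.0267 to 0.0757 in cumulus cells. Oocyte sets stood above PGCs and PGCs above ovaries with no overlap, and the ranges of 39-week ovary and cumulus cells overlapped. In single oocytes at 39 weeks the ratio ran from 0.364 to 4.61.

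**Figure D1:**
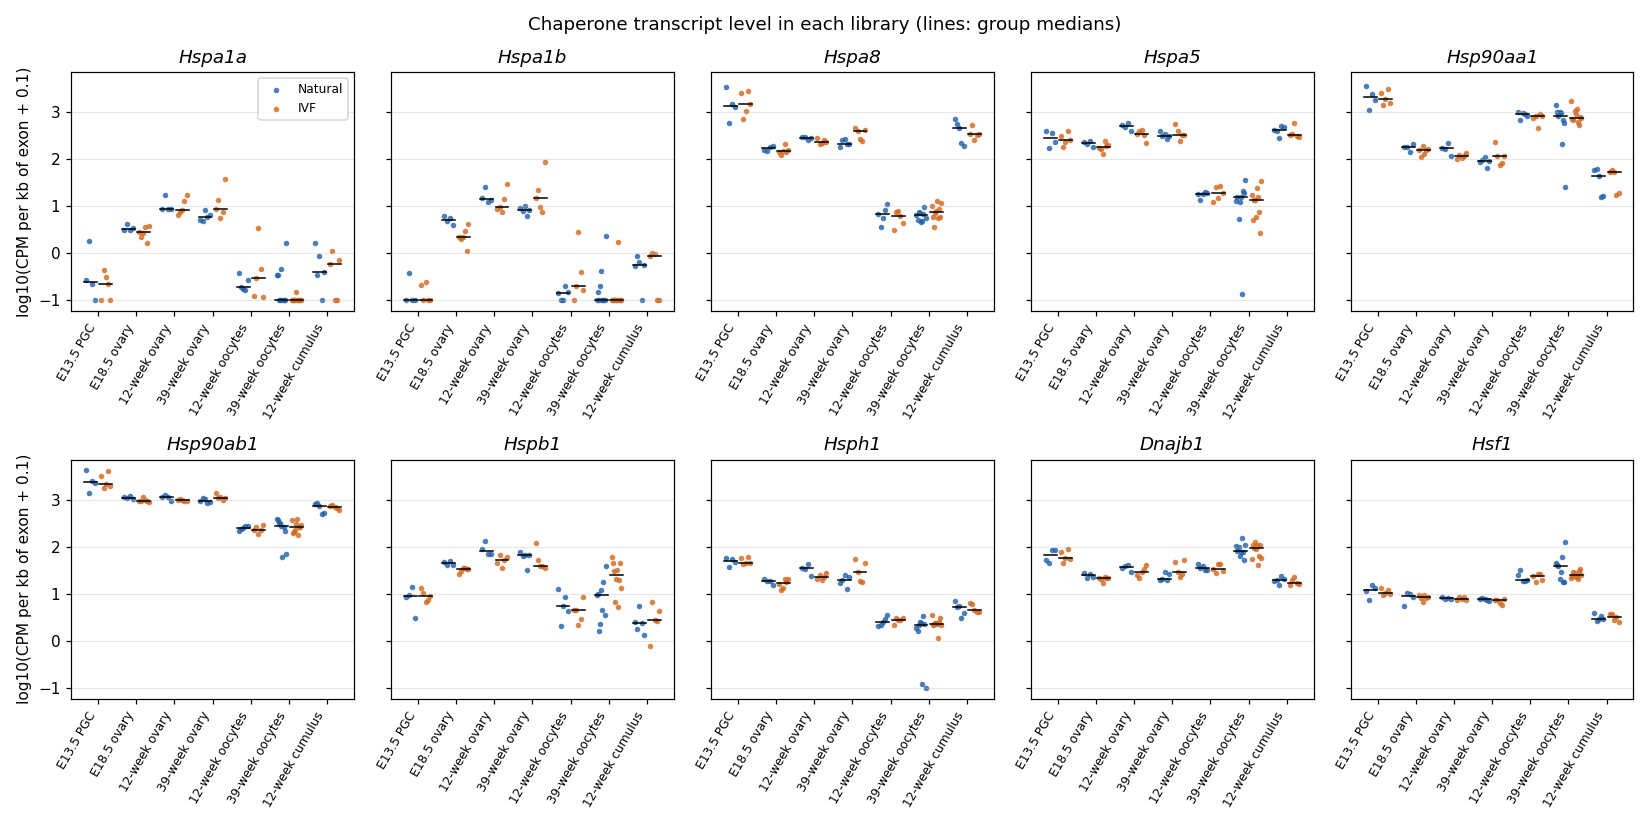
Transcript level of each member in every library of the 7 tables, as log10 of CPM per kilobase of exon plus 0.1, with points for libraries (sums of oocytes for 12-week oocytes) and lines for group medians. Hspa8 and Hspa5 lie lowest in oocytes, Hsp90aa1 lies lowest in cumulus cells and in 1 oocyte at 39 weeks, and Natural and IVF points of one tissue lie close together next to the distance between tissues.

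Across the 14 groups, made of 7 tables by Natural and IVF, Hspa8 ran from a mean of 7301 ± 3942 CPM (SD, n = 5) in IVF PGCs to 24.4 ± 8.68 CPM (n = 5) in IVF oocyte sets at 12 weeks. Behind the PGCs, cumulus cells (1525 and 1821 CPM) and adult ovaries (959 to 1496 CPM) overlapped in their libraries, then came the E18.5 ovary (655 and 724 CPM), and the 4 oocyte groups overlapped at means of 24.4 to 33.4 CPM. Hspa5 showed the same drop to oocytes, with group means of 57.9 to 82.2 CPM there against 758 to 2070 CPM in all other groups. For Hsp90ab1 the oocyte means of 713 to 797 CPM lay below those of cumulus cells (2027 and 2069 CPM), ovaries (2860 to 3422 CPM) and PGCs (7731 and 7746 CPM), and the ovary groups overlapped one another.

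Hsf1, which encodes the factor itself, showed the reverse pattern, which Hsp90aa1 and Dnajb1 shared in part. The group means of Hsf1 were 159 to 309 CPM in oocytes, 78.1 and 82.5 CPM in PGCs, 48.3 to 59.7 CPM in ovaries, and 21.3 and 22.1 CPM in cumulus cells. Dnajb1 was highest in 39-week oocytes, at 273 ± 91.7 CPM (n = 10) for IVF and 287 ± 94.2 CPM (n = 9) for Natural, followed by PGCs at 206 and 215 CPM, and was lowest in cumulus cells at 57.2 and 62.2 CPM. Hspa1a and Hspa1b were at most 4.92 CPM in any PGC or cumulus library and reached 4.49 to 112 CPM and 2.80 to 243 CPM in ovaries. Hspb1 stood at 27.6 to 136 CPM in ovaries, against 0.706 to 6.73 CPM in cumulus cells and 3.08 to 14.3 CPM in PGCs. For Hsph1 the medians were 343 CPM in PGCs, 132 to 178 CPM in ovaries, 35.1 CPM in cumulus cells and 15.8 to 19.5 CPM in oocytes.

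Genes with the pattern most like a member were found by Pearson's r of log2(CPM + 1) group means over these 14 groups, among 10708 genes with a mean of at least 10 CPM. Hspa1a was most like Hspa1b (r = 0.993), and next stood Rasd1 (0.989) for Hspa1a and C3 (0.988) for Hspa1b. Cct5, a subunit of the chaperonin TRiC, was the gene most like Hspa8 (0.996). The first genes for the rest were M6pr for Hspa5 (0.996), Agk for Hsp90aa1 (0.989), Mrpl23 for Hsp90ab1 (0.998), Osbp for Hspb1 (0.954), Lap3 for Hsph1 (0.993), Cib1 for Dnajb1 (0.945) and Rnf146 for Hsf1 (0.994). The points are group means that share tissue and library kit, and the values are a description with no test.

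In PGCs no member passed the test of IVF against Natural. The 8 members tested had log2 fold changes of IVF over Natural between -0.08 and 0.07, with the lowest unadjusted p at 0.732 for Hsf1. None of the 8 was called at an adjusted p under 0.05 (edgeR's quasi-likelihood test with Benjamini-Hochberg adjustment over 12763 genes), none had an unadjusted p under 0.05, and DESeq2 called none either. Of all genes tested, 0% were called. The libraries themselves spread widely: Hspa8 stood at 14156, 2473, 6296 and 5465 CPM in Natural and at 10802, 2977, 4472, 12002 and 6250 CPM in IVF. For Hsp90aa1 the values were 13805, 4330, 9455 and 6871 CPM in Natural and 10043, 5568, 7435, 11762 and 6015 CPM in IVF. Natural 1 was highest and Natural 2 lowest for Hspa8, Hsp90aa1 and Hsp90ab1 alike, and both groups covered the same range.

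The standard errors of these PGC fold changes were 0.61 for Hspa8, 0.50 for Hsp90aa1 and 0.49 for Hsp90ab1 on the log2 scale, which is what the spread between 4 and 5 libraries allows. Hspa1a and Hspa1b were below the filter on low counts in PGCs, with at most 4.92 and 0.787 CPM, both in Natural 2.

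At E18.5 Hspa1b and Hspb1 fell in IVF ovaries, and the fold changes of all 10 members were negative. Hspb1, which holds unfolded proteins and binds actin, stood at 48.7, 42.9, 50.4 and 41.2 CPM in the Natural ovaries and between 27.6 and 36.8 CPM with a median of 34.5 CPM in the 6 IVF ovaries. The groups did not overlap for Hspb1, and over all genes 4.33% were without overlap and lower in IVF. Its log2 fold change was -0.45 ± 0.12 (SE, adjusted p = 0.0419, edgeR's quasi-likelihood test with Benjamini-Hochberg adjustment). Hspa1b, an inducible HSP70, stood at 16.5, 12.9, 15.1 and 10.8 CPM in Natural ovaries and at 2.80 to 11.3 CPM with a median of 5.88 CPM in IVF ovaries. IVF 6 was above the lowest Natural ovary, and the other 5 IVF ovaries were below all Natural ones. The log2 fold change of Hspa1b was -1.08 ± 0.29 (adjusted p = 0.0476, edgeR).

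These 2 of 10 members were the ones called, against 2.75% of 16415 genes called and lower in IVF. Both calls sat close to the threshold: with 1 ovary left out in turn the count of members called was 0 to 1, with 0 in 7 of 10 cases (without IVF 1, 2, 4 or 5 or Natural 2, 3 or 4). Summing the Hspa1a and Hspa1b counts, which removes the split of reads between near-identical copies, gave a log2 fold change of -0.72 ± 0.23 and an adjusted p of 0.0855 for the sum (edgeR). Hspa1a alone stood at 8.82, 12.0, 8.98 and 10.0 CPM in Natural and at 4.49 to 10.8 CPM with a median of 7.84 CPM in IVF, and its log2 fold change of -0.34 ± 0.24 (adjusted p = 0.413, edgeR) did not pass the test.

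The other 7 members had log2 fold changes between -0.25 and -0.03 at E18.5. Closest to the threshold were Hsp90ab1 at -0.20 ± 0.10 (adjusted p = 0.237) and Dnajb1 at -0.23 ± 0.11 (adjusted p = 0.240), both by edgeR. Markers of growing and mature oocytes differed as well: the sum of 8 such genes was 187 to 740 CPM in Natural and 8.96 to 159 CPM in IVF. Erythroid markers went the other way, with a sum of 5 genes at 598 to 1600 CPM in Natural and 1601 to 4580 CPM in IVF. The groups did not overlap for either set, though they nearly met for the erythroid one. Summed fetal germ cell markers did overlap, at 174 to 602 CPM in Natural and 149 to 358 CPM in IVF. By staining, the study saw no difference in germ cell number at E18.5. The part of oocytes and erythroid cells in the lower Hspb1 and Hspa1b values was not tested.

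Other chaperone genes were counted from fixed lists. A list of 20 targets of heat shock factor 1, here called inducible chaperones, held genes outside the cytosol too, such as Hspd1 and Hspe1. Of these 20, 4 fell in IVF at E18.5 and none rose, with a median log2 fold change of -0.24 beside 0.00 over all genes: Hspb1 and Hspa1b, together with Cryab, a small heat shock protein, at -0.71 ± 0.15 (adjusted p = 0.0205), and Ahsa1, an activator of HSP90, at -0.41 ± 0.11 (adjusted p = 0.0447). Of 14 TRiC and prefoldin subunits, which fold actin and tubulin, Cct5 (-0.37), Pfdn6 (-0.57) and Pfdn4 (-0.72) fell, and the median was -0.34 with none of 14 positive. None of 10 mitochondrial chaperones passed the test, with Hspe1 at -0.45 (adjusted p = 0.0853) and a median of -0.26. In the endoplasmic reticulum list Ern1, a sensor of unfolded proteins, rose at 1.05 ± 0.18 (adjusted p = 0.0129) as the only called gene of 22, while the median was -0.19. Dnaja4 (0.75, adjusted p = 0.034) and Hsf5 (1.58, adjusted p = 0.0232) also rose. All of these p-values are from edgeR, and the lists overlap with one another and with the members.

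At 12 weeks no member passed the test, and the fold changes of all 10 were again negative. edgeR called 0 of the 10 members, beside 0.00567% of 17628 genes, while 4 members had an unadjusted p under 0.05, beside 14.4% of genes. DESeq2 called 3 of these 4 (Hspb1, Hsph1 and Hsp90aa1), beside 656 genes over all. Hspb1 stood at 93.9, 136, 71.5 and 73.6 CPM in Natural and at 46.0, 66.8, 36.5, 53.4 and 61.4 CPM in IVF. All 5 IVF ovaries were below all 4 Natural ones, as for 3.64% of genes, and the log2 fold change was -0.82 ± 0.22 (adjusted p = 0.178, edgeR). Hsph1, which recharges HSP70 with ATP, stood at 261, 246, 306 and 175 CPM in Natural and at 146, 178, 140, 161 and 196 CPM in IVF. Only Natural 4 was inside the IVF range, and the log2 fold change was -0.59 ± 0.16 (adjusted p = 0.180, edgeR).

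Hsp90aa1, the inducible HSP90, stood at 682, 635, 848 and 454 CPM in Natural and at 388, 467, 421, 451 and 514 CPM in IVF at 12 weeks. Natural 4 again lay among the IVF ovaries, and the log2 fold change was -0.55 ± 0.17 (adjusted p = 0.211, edgeR). For Hspa5 the values were 2205, 2053, 2394 and 1628 CPM in Natural and 1400, 1631, 1764, 1332 and 935 CPM in IVF. The 3 highest ovaries were Natural, and the log2 fold change was -0.55 ± 0.19 (adjusted p = 0.247, edgeR). Hspa1a and Hspa1b did not separate the groups: their highest values were IVF 5 (51.2 and 80.4 CPM) and Natural 2 (49.9 and 70.0 CPM), and without Natural 2 their log2 fold changes were 0.23 and 0.02 in place of -0.04 and -0.23.

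Epithelial marker genes moved with the 12-week groups. The sum of 6 oviduct and surface epithelium markers (Ovgp1, Foxj1, Krt8, Krt18, Krt7 and Pax8) was 6306, 3494, 7596 and 3404 CPM in the Natural ovaries and 2751, 3040, 86.8, 874 and 614 CPM in the IVF ovaries. The groups did not overlap, and Natural 3 and Natural 1, the highest for these markers, were also the highest for Hsph1, Hsp90aa1 and Hspa5. Hspb1 did not follow this order, since it was lowest among Natural ovaries in Natural 3 and highest in Natural 2, and IVF 3, with the lowest marker sum, had the highest Hspa5 among IVF ovaries. The part of these cells in the chaperone values was not tested. Immediate early genes (17 listed), which respond within minutes to handling or stress, summed to 1112 to 1519 CPM in Natural and 1009 to 1348 CPM in IVF and overlapped.

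In the lists at 12 weeks, none of the 20 inducible chaperones was called and none had a positive fold change, with a median of -0.29 beside 0.01 over all genes. Of 22 endoplasmic reticulum genes none was called, 1 was positive, and the median was -0.45, with Xbp1, a transcription factor of the unfolded protein response, at -0.48 ± 0.09 (adjusted p = 0.117) and Herpud1 at -0.71 ± 0.14 (adjusted p = 0.142), both by edgeR. TRiC and prefoldin were even, with 7 of 14 positive and a median of 0.00.

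**Figure D2:**
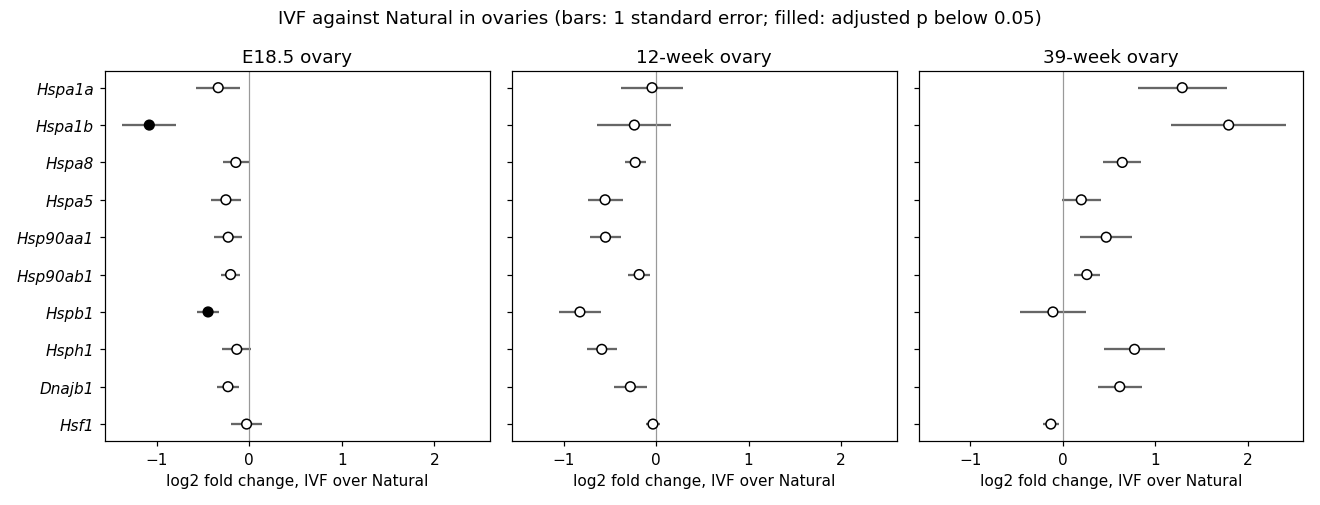
Log2 fold change of IVF over Natural for each member in ovaries of 3 ages, with bars of 1 standard error and filled points where the adjusted p of edgeR's test was under 0.05. All points at E18.5 and 12 weeks lie left of 0, only Hspa1b and Hspb1 at E18.5 are filled, and at 39 weeks all but Hspb1 and Hsf1 lie right of 0.

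At 39 weeks the values lay the other way, with 8 of 10 members positive, yet no member passed the test. edgeR called 0 of 10, beside 0.262% of 17186 genes, and 5 members had an unadjusted p under 0.05, beside 19.2% of genes. DESeq2 called 2 members (Hspa1b and Hspa8), beside 1229 genes over all. Hspa8 stood at 759, 1093, 1155, 904 and 884 CPM in Natural and at 1954, 1647, 1126, 1018 and 1736 CPM in IVF. IVF 1, 2 and 5 were above every Natural ovary and IVF 3 and 4 were inside the Natural range, and the log2 fold change was 0.64 ± 0.20 (adjusted p = 0.147, edgeR).

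Hspa1b stood at 24.8, 21.8, 27.8, 16.7 and 22.3 CPM in Natural and at 40.7, 60.9, 26.4, 20.2 and 243 CPM in IVF at 39 weeks. IVF 5 was several times above every other ovary, IVF 1 and 2 were also above the Natural range, and the log2 fold change was 1.79 ± 0.62 (adjusted p = 0.175, edgeR). Without IVF 5 the log2 fold change was 0.71. Hspa1a followed, at 14.6, 13.6, 24.5, 16.6 and 19.0 CPM in Natural and at 25.9, 40.1, 16.4, 21.3 and 112 CPM in IVF. Its log2 fold change was 1.29 ± 0.48 (adjusted p = 0.199, edgeR), and 0.55 without IVF 5. Immediate early genes summed to 1027 CPM in IVF 5, beside 890 to 1377 CPM over all 39-week ovaries, and the cause of the high Hspa1a and Hspa1b values there was not tested.

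Hsph1 stood at 124, 139, 184, 91.1 and 167 CPM in Natural and at 398, 214, 134, 130 and 331 CPM in IVF at 39 weeks. IVF 1, 5 and 2 were above the Natural range, and the log2 fold change was 0.77 ± 0.33 (adjusted p = 0.239, edgeR). Dnajb1 stood at 63.4, 65.3, 93.1, 63.7 and 84.2 CPM in Natural and at 153, 92.0, 74.0, 82.0 and 165 CPM in IVF. IVF 1 and 5 were the high ovaries again, and the log2 fold change was 0.61 ± 0.24 (adjusted p = 0.213, edgeR).

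A single ovary, IVF 1, held the highest value of Hsp90aa1 (882 CPM, beside 255 to 457 CPM in the other 9), Hspb1 (123 CPM, beside 32.4 to 79.7 CPM), Hspa5 (2363 CPM, beside 1036 to 1681 CPM) and Hsp90ab1 (4220 CPM, beside 2572 to 3386 CPM). The 6 epithelial markers summed to 8744 CPM in that ovary and to 49.2 to 228 CPM in the other 9, and the part of these cells in its chaperone values was not tested. Without IVF 1 and IVF 5, a choice made after seeing the data, 0 members were called, as with all ovaries, and 0 had an unadjusted p under 0.05 by edgeR. One or the other of these ovaries held the highest value of most members, so a smaller difference without them followed from the choice. Summed theca, stroma and luteal markers were 12110 to 20160 CPM in Natural and 7539 to 14720 CPM in IVF, and overlapped.

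**Figure D3:**
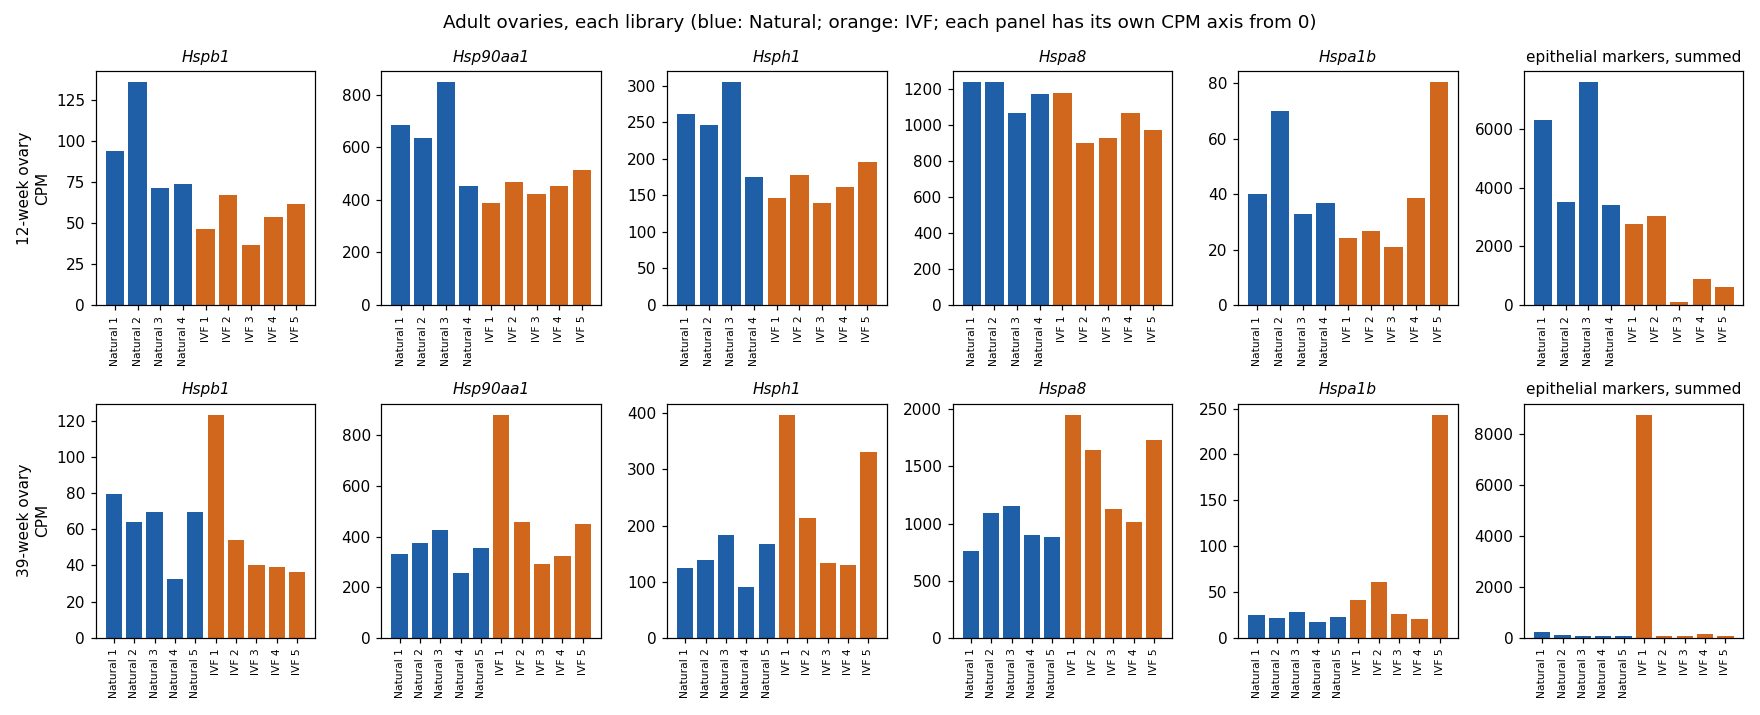
CPM of 5 members and the summed CPM of the 6 epithelial markers in each adult ovary, 12 weeks above and 39 weeks below, each panel with its own axis from 0. At 12 weeks the Natural ovaries hold the high epithelial sums, and at 39 weeks IVF 1 alone does (8744 CPM), while Hspa1b is highest in IVF 5 (243 CPM).

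Of the 20 inducible chaperones, 17 had a positive fold change at 39 weeks, none was called, and the median was 0.36 beside 0.03 over all genes. Fkbp4, an HSP90 cochaperone of steroid receptors, stood at 0.78 ± 0.20 (adjusted p = 0.1003), and Stip1, which links HSP70 to HSP90, at 0.45 ± 0.16 (adjusted p = 0.175). All 14 TRiC and prefoldin subunits were positive with a median of 0.29, and none was called, with Cct6a at 0.45 ± 0.10 (adjusted p = 0.0844). The endoplasmic reticulum list had a median of 0.08 and the mitochondrial list 0.01, with no gene called in either. These p-values are from edgeR.

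The difference between IVF and Natural was then compared between ages in a model of all 29 ovaries. The 3 comparisons share samples and are not independent of one another. Between 39 and 12 weeks the difference moved up for Hspa8, by 0.86 ± 0.22 on the log2 scale (adjusted p = 0.0386, edgeR), and for Hsph1, by 1.35 ± 0.35 (adjusted p = 0.0382, edgeR). These 2 of 10 members stood beside 1.96% of 19724 genes called in that direction. Hsp90aa1 (1.00 ± 0.31, adjusted p = 0.0688) and Dnajb1 (0.89 ± 0.27, adjusted p = 0.0688) did not pass by edgeR. Left out 1 at a time, the 29 ovaries gave counts of 0 to 5 members called, with 0 in 9 cases: 12-week IVF 3 and 5, 12-week Natural 1, 2 and 3, and 39-week IVF 1 and Natural 1, 4 and 5. Age cannot be told apart from the table in which an ovary was counted.

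Between 39 weeks and E18.5 the difference moved up for 4 of 10 members, beside 5.1% of genes. These were Hspa1b, by 2.91 ± 0.71 (adjusted p = 0.0129), Hspa8, by 0.80 ± 0.22 (adjusted p = 0.0241), Hsp90ab1, by 0.48 ± 0.14 (adjusted p = 0.0326), and Dnajb1, by 0.87 ± 0.27 (adjusted p = 0.0464), all by edgeR. Hspa1b remained called with each of the 29 ovaries left out, with a difference of 1.81 to 3.15. Hspa8 remained called in 28 of 29 cases, Hsp90ab1 in 22 (adjusted p up to 0.105) and Dnajb1 in only 10 (up to 0.0842), all by edgeR. Between 12 weeks and E18.5 none of the 10 members was called by edgeR or DESeq2, beside 0.314% of genes, and none had an unadjusted p under 0.05, the lowest being 0.241 for Hsph1.

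Among the lists, all 20 inducible chaperones had a positive difference between 39 and 12 weeks, with 4 called (Fkbp4 1.10, Stip1 0.72, Hspd1 0.81 and Hsph1) and a median of 0.72 beside 0.00 over all genes. Between 39 weeks and E18.5, 11 of 14 TRiC and prefoldin subunits moved up, led by Cct5 (0.79 ± 0.12, adjusted p = 0.000206, edgeR) and Cct2 (0.72 ± 0.13, adjusted p = 0.000926, edgeR), with a median of 0.62 beside 0.07 over all genes. In the HSP90 list 6 of 15 moved up, among them Ahsa1 (0.72) and Ptges3 (0.56), both HSP90 cochaperones.

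Natural ovaries themselves changed with age. From E18.5 to 12 weeks 7 of 10 members rose, beside 25.3% of genes, and the same count was reached with each ovary left out. The inducible genes Hspa1a (1.74 ± 0.44) and Hspa1b (1.78 ± 0.56) had the largest log2 fold changes of the members, followed by Hspa5 (1.28 ± 0.22, adjusted p = 2.32e-05, edgeR), Hspb1 (1.11 ± 0.29), Hsph1 (0.98 ± 0.27), Hspa8 (0.79 ± 0.17) and Dnajb1 (0.65 ± 0.21, adjusted p = 0.0132, edgeR). Hsp90aa1 (0.01 ± 0.24), Hsp90ab1 (0.08 ± 0.11) and Hsf1 (0.01 ± 0.12) did not pass. With Hspa5 rose 21 of 22 endoplasmic reticulum genes, with a median of 1.26 beside 0.01 over all genes, led by Dnajc3 (2.04) and Herpud1 (1.61). TRiC and prefoldin did not follow, with 1 of 14 higher (Cct7 0.32), 1 lower (Tcp1 -0.31) and a median of -0.11.

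From 12 to 39 weeks in Natural ovaries Hsp90aa1 fell, by 0.79 ± 0.22 on the log2 scale (adjusted p = 0.0136, edgeR). It was the 1 of 10 members called, no larger a share than the 11.6% of all genes called and lower. The call was lost without 12-week Natural 3, where Hsp90aa1 was highest. Hsph1 (-0.69 ± 0.25, adjusted p = 0.0525) and Dnajb1 (-0.52 ± 0.20, adjusted p = 0.0605) did not pass by edgeR. In the endoplasmic reticulum list 10 of 22 fell, among them Atf4 (-0.73) and Creld2 (-1.57), and 2 rose, among them Ern1 (0.78). The epithelial markers, 3404 to 7596 CPM in Natural ovaries at 12 weeks, were 49.2 to 228 CPM in those at 39 weeks, and their part in these changes was not tested.

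IVF ovaries were fitted for age in the same model. From E18.5 to 12 weeks 7 of 10 members rose, the same 7 as in Natural ovaries, beside 30.8% of genes, with Hspa1b at 2.65 ± 0.49 and Hspa1a at 2.05 ± 0.38. From 12 to 39 weeks Hspa8 rose by 0.69 ± 0.15 (adjusted p = 0.0104, edgeR) and Hsp90ab1 by 0.34 ± 0.10 (adjusted p = 0.034, edgeR), 2 of 10 members beside 4.23% of genes. With each of the 29 ovaries left out in turn Hspa8 remained called, and Hsp90ab1 lost its call without 12-week IVF 1, 3, 4 or 5 or 39-week IVF 1, 3 or 5 (adjusted p of 0.0508 to 0.0788, edgeR). Hsp90aa1, which fell in Natural ovaries, stood at 0.21 ± 0.21 (adjusted p = 0.630, edgeR). The direct test of this difference between IVF and Natural ovaries did not pass for Hsp90aa1 (1.00 ± 0.31, adjusted p = 0.0688, edgeR). Of the 20 inducible chaperones, 17 were positive in IVF ovaries from 12 to 39 weeks (2 called) and 2 in Natural ovaries (6 called, all lower). In the direct test of this difference 4 of the 20 were called. From E18.5 to 12 weeks 9 of 14 TRiC and prefoldin subunits rose in IVF ovaries, and no subunit was called for the difference from Natural ovaries.

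In 12-week oocyte sets no member passed the test of IVF against Natural. edgeR called 0 of the 9 members tested, beside 0.0277% of 14444 genes, 1 had an unadjusted p under 0.05, beside 6.67% of genes, and DESeq2 called 0. Hsp90aa1 stood at 3891, 2648, 3630, 3541 and 3257 CPM in Natural sets and at 2879, 3171, 1806, 3497 and 3242 CPM in IVF sets. IVF 3 was lowest, the other sets overlapped, and the log2 fold change was -0.22 ± 0.17 (adjusted p = 0.881, edgeR). Hsf1 stood at 175, 221, 128, 134 and 135 CPM in Natural and at 169, 124, 187, 186 and 137 CPM in IVF, fully overlapping, with a log2 fold change of 0.02 ± 0.18. The member with the low unadjusted p was Hspa1a, at 0.843, 0.256, 0.218, 0.182 and 0.505 CPM in Natural and at 0.0722, 0.595, 9.72, 1.06 and 0.0455 CPM in IVF. Its log2 fold change of 2.45 ± 1.13 (adjusted p = 0.745, edgeR) rested on set IVF 3 and was 0.11 without it.

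Single oocytes fell apart within the sets by their oocyte transcripts. A total of 10 of 76 oocytes at 12 weeks (6 IVF and 4 Natural) and 2 of 19 at 39 weeks (both Natural) had Gdf9 under 2000 CPM, a limit set after seeing the data, and 4 of the 8 oocytes in set IVF 3 and 2 of the 8 in set IVF 4 were among them. In these 12 oocytes Hsp90aa1 was 57.3 to 814 CPM, beside 2037 to 6780 CPM in the other 83. Hsp90ab1 was 129 to 362 CPM, beside 518 to 1164 CPM. Neither range overlapped. Hsf1 went the other way, with a median of 352 CPM (174 to 876) beside 151 CPM (93.6 to 312), and Dnajb1 had a median of 163 CPM (84.0 to 487) beside 119 CPM (70.4 to 400.0). Hspa8 overlapped between them, with medians of 24.9 and 24.5 CPM. Oocyte markers other than Gdf9 were also low in the 12, with medians of 8.40 CPM beside 97.3 CPM for Zp3 and 40.7 CPM beside 1227 CPM for Ooep. Ooep did not overlap either, at up to 163 CPM in the 12 and from 243 CPM in the rest, so this separation was not particular to the HSP90 genes. Inha, a granulosa gene, had medians of 1.88 and 1.60 CPM.

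**Figure D4:**
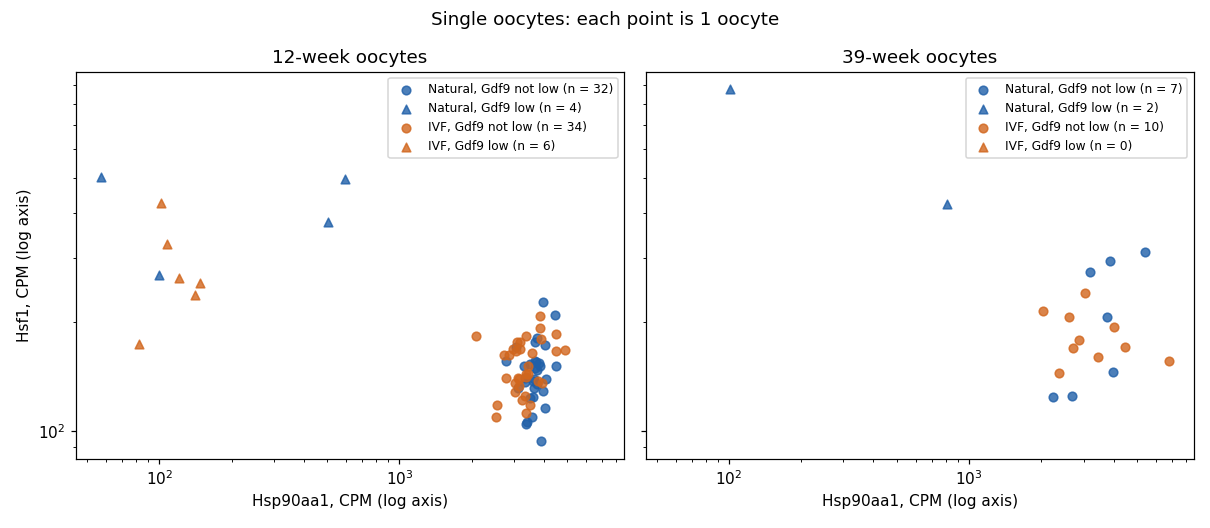
Hsf1 against Hsp90aa1 in CPM, both on log axes, in each single oocyte at 12 and 39 weeks, with triangles for oocytes under 2000 CPM of Gdf9 and circles for the rest. The 12 triangles lie left of all circles, at 57.3 to 814 CPM of Hsp90aa1, and most of them lie higher for Hsf1.

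Without these oocytes the 12-week sets still gave 0 of 8 members called by edgeR. In all 39-week oocytes, those low in Gdf9 included, where no donor is named and no test was run, 4 of 10 members had the higher median in IVF, beside 52.7% of 10940 genes: Hspa8 (31.9 against 26.8 CPM), Hspb1 (26.2 against 9.79 CPM), Hsph1 (16.2 against 14.6 CPM) and Dnajb1 (297 against 254 CPM). For Hspb1 the oocytes ranged from 5.18 to 60.8 CPM in IVF and from 1.54 to 39.8 CPM in Natural. All of these ranges overlapped. Without the 2 Natural oocytes low in Gdf9, 3 of 10 members had the higher IVF median, beside 48.5% of genes, and Hsph1 was no longer among them. With CPM of total counts there were 5 of 10, with Hsp90aa1 added. The shares of genes cover only those past the filter on low counts, while all 10 members were counted. Hspa1a and Hspa1b had a median of 0 CPM in both groups, so neither could have the higher IVF median.

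In cumulus cells no member passed the test of IVF against Natural in a model with the naming series as a term. edgeR called 0 of the 9 members tested, beside 0.00903% of 11080 genes, none had an unadjusted p under 0.05, and DESeq2 called none. Levels of Hsp90aa1 were split by naming series and were 173, 233 and 238 CPM in Natural and 205, 208 and 227 CPM in IVF of the GC series, and 59.99 and 65.1 CPM in Natural and 68.4 and 72.9 CPM in IVF of the 12wks series. The series did not overlap, while Natural and IVF overlapped within GC and lay next to each other, IVF above, within 12wks. Within Natural libraries the series differed by 1.78 ± 0.24 on the log2 scale (adjusted p = 6.42e-05, edgeR) and within IVF libraries by 1.59 ± 0.23 (adjusted p = 0.000246, edgeR).

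Hspa8 went in opposite directions in the naming series. It stood at 2403, 1915 and 3051 CPM in Natural and at 1472, 2215 and 1074 CPM in IVF of the GC series, and at 920 and 819 CPM in Natural and 1414 and 1448 CPM in IVF of the 12wks series. The log2 fold change of IVF over Natural was -0.63 ± 0.25 in GC (adjusted p = 0.864) and 0.72 ± 0.30 in 12wks (adjusted p = 0.367), and the difference between them was -1.35 ± 0.39 (unadjusted p = 0.00271, adjusted p = 0.200), all by edgeR. Neither series nor their difference passed the test after adjustment. In the model with both series the log2 fold change was -0.10 ± 0.26, and without Natural 5, the library whose name matches an IVF oocyte set, it was 0.07. Immediate early genes summed to 3849 and 3755 CPM in Natural and 5156 and 5290 CPM in IVF of 12wks, and overlapped in GC. In the model 15 of them were tested, none was called and 13 were positive, with a median of 0.48 beside 0.00 over all genes. Their relation to the Hspa8 values was not tested.

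**Figure D5:**
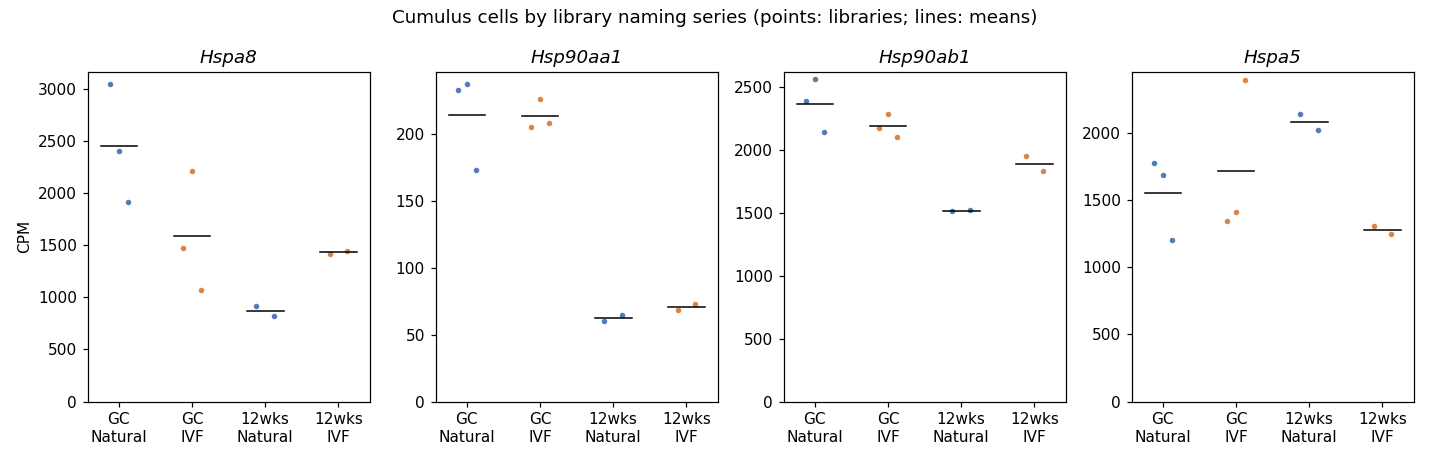
CPM of 4 members in each cumulus library, by naming series (GC or 12wks) and conception, with lines for means and axes from 0. Hsp90aa1 lies at 173 to 238 CPM in GC libraries and at 59.99 to 72.9 CPM in 12wks libraries, and the order of Natural and IVF for Hspa8 differs between the series.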

How the data were processed

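The deposited files are tables of raw read counts per gene. Per the submitters' processing notes, the authors used Trimmomatic 0.32, STAR 2.3.0e, featureCounts 1.5.0 and DESeq2 with mm10, while the study's methods name trimgalore as the trimmer for PGC, oocyte and cumulus libraries, so reads shared by near-identical copies may be lost. The members and gene lists were chosen with earlier results of these data known. Groups were taken from the sample labels, which give other group sizes for adult ovaries and oocytes than the series' design text, and 0 count columns were left unmapped. Counts were filtered (filterByExpr), TMM-normalized and tested within each table with edgeR 4.0.16's quasi-likelihood test (R 4.3.3), at a Benjamini-Hochberg adjusted p under 0.05. A joint model of 29 ovaries tested ages and the difference of IVF effects. Cumulus fits carried the naming series, and single 12-week oocytes were summed by the first 2 fields of the library name. Alternatives were DESeq2 1.42.0, RLE size factors, no filter, a replicate block, summed Hspa1a and Hspa1b, and each library left out. The scripts were tested on simulated data. All 10 members are named, and of each list up to 4 called genes. Libraries are not duplicates by a chi-square comparison of their counts. Some labels conflict, as stated with the values.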

Additional observations from a re-analysis of the deposited data

Results flagged for a closer look

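Single libraries stood apart from their group for 20 of 140 combinations of member and group by Dixon's test at the 95% level, which chance alone would give for about 1 in 20 where values are not tied. In 7 of the 20 the group held a library at 0, where that rate does not apply and a few reads are enough to stand apart. In PGCs, Natural 2 held Hspa1a at 4.92 CPM and Hspa1b at 0.787 CPM. Among ovaries, IVF 4 at E18.5 held Hspa8 at 892 CPM, and Natural 2 at 12 weeks held Hspa1a at 49.9 CPM. At 39 weeks, IVF 5 held Hspa1a at 112 CPM and Hspa1b at 243 CPM, and IVF 1 held Hsp90aa1 at 882 CPM and Hspb1 at 123 CPM.

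Among 12-week oocyte sets, IVF 3 held Hspa1a at 9.72 CPM and Hspa1b at 7.56 CPM, and Natural 2 was low for Hspa5 at 54.9 CPM. Among 39-week oocytes, IVF 5 held Hspa1a at 0.134 CPM, IVF 7 held Hspa1b at 4.601 CPM and IVF 1 held Hsp90aa1 at 6780 CPM. Natural 9, which was 1 of the oocytes low in Gdf9, held Hspa1a at 4.52 CPM, Hspa1b at 6.29 CPM, Hspb1 at 39.8 CPM and Hsf1 at 876 CPM. In cumulus cells, Natural 4 held Hspb1 at 5.44 CPM and IVF 3 held Hspa5 at 2394 CPM.

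The log2 fold change of IVF over Natural differed between ages, by edgeR's test of the difference, for 6 combinations of member and ages. Between 39 and 12 weeks the difference was 0.86 for Hspa8 and 1.35 for Hsph1. Between 39 weeks and E18.5 it was 2.91 for Hspa1b, 0.80 for Hspa8, 0.48 for Hsp90ab1 and 0.87 for Dnajb1.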

How the results depend on the processing

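Of 1112 alternative values of 53 member fold changes, 999 kept direction and side of the threshold, 73 were no longer past it, 22 newly passed and 18 changed sign. Members called at E18.5 numbered 2, and 1 with no filter, 1 with Hspa1a and Hspa1b summed, 0 with a replicate block, and 0 to 1 with an ovary left out. DESeq2 called 3 members at 12 weeks and 2 at 39 weeks, where edgeR called 0. It called 6 for the difference between 39 and 12 weeks (edgeR 2, and 0 to 5 with an ovary left out) and 2 for Natural ovaries of 39 against 12 weeks (edgeR 1, and 0 to 3). The 4 members of 39 weeks against E18.5 became 2 with RLE size factors, 2 with no filter and 1 to 6 with an ovary left out. The cause of these changes was not tested.

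Among these 53 fold changes, signs changed only with a library left out, over ranges of -0.19 to 0.065 for Hsf1 at E18.5, -0.34 to 0.23 for Hspa1a and -0.74 to 0.018 for Hspa1b at 12 weeks, -0.57 to 0.023 for Hspb1 at 39 weeks, -0.24 to 0.63 for Hspa8 in PGCs and -0.27 to 0.11 for Hspa8 in cumulus cells. Outside the 53, other small fold changes also changed sign, such as Hsf1 in 12-week oocyte sets (-0.063 to 0.17) and Hsp90aa1 in PGCs (-0.30 to 0.25). Over all genes, DESeq2 against edgeR called 1924 against 891 at E18.5, 656 against 1 at 12 weeks, 1229 against 45 at 39 weeks, 46 against 4 in oocyte sets, 31 against 1 in cumulus cells and 1535 against 534 for 39 against 12 weeks.

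In no table was the correlation of deviations over 0.1 for every pair of samples with the same number (at 39 weeks all 5 were positive, from 0.0322 to 0.393), so the numbers were not taken to pair the samples, and the replicate block changed the member count only at E18.5, where 2 genes were called against 891 without it. The 12-week oocyte sets share no numbers, so they were not blocked.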

Other observations

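The remaining lists gave these values by edgeR. At E18.5 the median log2 fold change of IVF over Natural was -0.54 for 6 small heat shock proteins (2 fell), -0.13 for 15 HSP70 genes (1 fell), -0.20 for 15 HSP90 genes and cochaperones (1 fell), -0.05 for 25 J-domain proteins and exchange factors (1 rose), -0.03 for 5 heat shock factors and regulators (1 rose) and -0.32 for 16 immediate early genes (none called). At 39 weeks none of these lists held a called gene, and the medians were -0.11 for 7 small heat shock proteins, 0.25 for the HSP70 genes, 0.26 for the HSP90 genes, 0.03 for the J-domain proteins and 0.15 for the immediate early genes. From E18.5 to 12 weeks in Natural ovaries 12 of 15 HSP70 genes, 13 of 25 J-domain proteins, 8 of 15 HSP90 genes, 3 of 7 small heat shock proteins and 10 of 16 immediate early genes rose.

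Natural cumulus libraries also differed by naming series for Hspa8, by 1.501 ± 0.29 on the log2 scale (GC over 12wks, adjusted p = 0.00204, edgeR), while IVF libraries gave 0.15 ± 0.28 (adjusted p = 0.792, edgeR). Over all genes, 1486 of 11639 were called between the series in Natural libraries and 1360 in IVF libraries.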
